A study of Homo sapiens with 12 samples.

Results

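The dual-specificity MAP kinase phosphatases are the enzymes that switch MAP kinases off, and their mRNA levels were followed in 2 cancer cell lines with and without a RET inhibitor. The family was taken as 10 genes, DUSP1, DUSP2, DUSP4, DUSP5, DUSP6, DUSP7, DUSP8, DUSP9, DUSP10 and DUSP16, matched by Ensembl identifier to the rows of both expression tables. Of the 10, 9 had a row among the 37247 genes of the tables, and DUSP8 (ENSG00000184545) is not analysed here. RNA-seq was done on 4 groups of 3 libraries each. TPC-1, a papillary thyroid carcinoma line, was grown in RPMI-1640 with serum, either with 100 nM selpercatinib for 48 h or as parent cells with no treatment. LC-2/ad, a lung adenocarcinoma line, was grown in RPMI-1640 mixed with F-12 and serum, again with 100 nM selpercatinib for 48 h or as parent cells with no treatment. Both lines are known for a RET gene fusion, and selpercatinib is a selective inhibitor of the RET kinase. Each condition rests on a single line, and the labels leave it unsaid whether a library is a culture of its own, so that every p-value reflects the spread between these libraries, which may be technical.

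A MAP kinase is active only when both a threonine and a tyrosine in its activation loop carry phosphate, and these phosphatases remove both. Each pairs a catalytic domain with an N-terminal domain that docks onto the kinase, and the family divides by location and preferred kinase. DUSP1, DUSP2, DUSP4 and DUSP5 are nuclear and are induced by growth factors or stress. DUSP6, DUSP7 and DUSP9 are cytoplasmic and prefer ERK. DUSP8, DUSP10 and DUSP16 prefer JNK and p38. Several of the genes, DUSP6 above all, are transcribed when ERK is active and so form a negative feedback loop, which is why DUSP6 mRNA is widely used as a readout of RET, RAS and RAF signalling in lung and thyroid tumour cells.

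The stretch just upstream of the transcription start is shown for DUSP1, the member that moved opposite to its nuclear relatives in LC-2/ad, and for DUSP7, the close relative of DUSP6 with the smallest decrease among the lowered members of that line. Both are 250 bases, read 5′ to 3′ on the minus strand of GRCh38.p14 from RefSeq, at chr5:172771196-172771445 for DUSP1 and chr3:52056572-52056821 for DUSP7. The capitals in the DUSP1 sequence mark a cyclic AMP response element, TGACGTCA.
DUSP1: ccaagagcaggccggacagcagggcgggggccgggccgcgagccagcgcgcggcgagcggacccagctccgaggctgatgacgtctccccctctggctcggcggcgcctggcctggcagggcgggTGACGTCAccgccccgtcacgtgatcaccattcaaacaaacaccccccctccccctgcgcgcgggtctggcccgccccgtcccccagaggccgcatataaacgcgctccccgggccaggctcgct
DUSP7: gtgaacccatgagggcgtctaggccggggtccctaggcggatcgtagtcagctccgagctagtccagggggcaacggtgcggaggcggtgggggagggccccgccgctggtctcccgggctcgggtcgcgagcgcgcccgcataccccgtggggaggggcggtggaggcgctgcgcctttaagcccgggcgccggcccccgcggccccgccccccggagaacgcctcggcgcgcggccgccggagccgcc
The DUSP1 stretch was 74.4% G and C and the DUSP7 stretch 78.4%, against a median of 58% over all 34941 promoters searched. The response element of DUSP1 began 125 and ended 118 bases upstream of the start, and 1.6% of all promoters held the same letters. Of 8 family members whose RefSeq entries were used, DUSP8 also held it. No window is given here for DUSP4 or DUSP5. No other motif searched, on either strand, was found in the 10 windows of these 8 members (DUSP9 and DUSP10 have 2 entries each): the AP-1 site TGANTCA (in 6.6% of all promoters), the ETS core CCGGAA (14.5%), the forkhead site GTAAACA (3.0%) and the CArG box (1.2%). The window ahead of the RefSeq start of DUSP6 lies within the first exon of a longer GENCODE 29 transcript and is not printed.

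Expression is given as TPM, the authors' unit, in which transcripts are scaled to a total of 1000000 per library. TPM correct for transcript length, so levels may be compared between genes. Thyroid factors were present in TPC-1 (PAX8 at 154 to 285 TPM, FOXE1 at 8.29 to 9.83 TPM), while NKX2-1 was listed at 0 in all 6 libraries and thyroglobulin did not pass 1.42 TPM. In LC-2/ad NKX2-1 stood at 105 to 141 TPM and NAPSA at 30.1 to 37.1 TPM, with the surfactant genes SFTPB and SFTPC below 1 TPM. RET had 7.00, 6.79 and 6.78 TPM in treated and 7.28, 6.92 and 6.93 TPM in parent TPC-1 cells, and 22.2, 21.0 and 21.1 TPM in treated against 15.7, 15.9 and 16.5 TPM in parent LC-2/ad cells (log2 fold change -0.03 ± 0.10, adjusted p = 0.889 in TPC-1; 0.40 ± 0.06, adjusted p = 0.001 in LC-2/ad, limma). An inhibitor acts on the protein, so this mRNA does not check the labels. The proliferation genes MKI67, TOP2A, CCNB1 and PCNA summed to 618 to 675 TPM in treated and 656 to 679 TPM in parent TPC-1 cells. In LC-2/ad they summed to 204 to 212 TPM in treated against 640 to 661 TPM in parent cells, and mitochondrial transcripts made up 14.01 to 14.95% of treated against 9.72 to 9.83% of parent libraries. The part of both in the LC-2/ad results was not tested, except that every member called there kept its call with the mitochondrial genes taken out. In bulk RNA, fewer cells of one kind and less RNA per cell cannot be told apart.

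Treated and parent libraries of a line were compared with limma on log2(TPM + 1), for genes with a mean of at least 1 TPM over the 6 libraries of that line, and a gene was called at a Benjamini-Hochberg adjusted p under 0.05 over all genes tested. Errors of log2 fold changes are limma's standard errors. Adding 1 TPM understates the change of low genes. In TPC-1 6 members passed the level filter, of which 2 fell (DUSP5 and DUSP6) and none rose. No other of these 6 reached an unadjusted p under 0.05 in limma. In the background of all 12825 genes, 4.96% were called, 1.21% as lower and 3.75% as higher (155 and 481 genes, against 254 and 420 with median-of-ratios scaling). In LC-2/ad 8 members passed and all 8 were called, with DUSP2, DUSP4, DUSP5, DUSP6 and DUSP7 lower and DUSP1, DUSP10 and DUSP16 higher. There 55% of all 14118 genes tested were called, 24.4% lower and 30.6% higher, so that being called is by itself common in this line. These were 3451 genes lower and 4319 higher, against 4318 and 3442 with median-of-ratios scaling. DUSP2 passed the filter there only through its level in parent cells, and DUSP10 in TPC-1 only through its level in treated cells. The median log2 fold change of the members tested was 0.01 in TPC-1 and -0.64 in LC-2/ad, beside 0.05 and 0.07 over all genes tested.

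**Figure D1:**
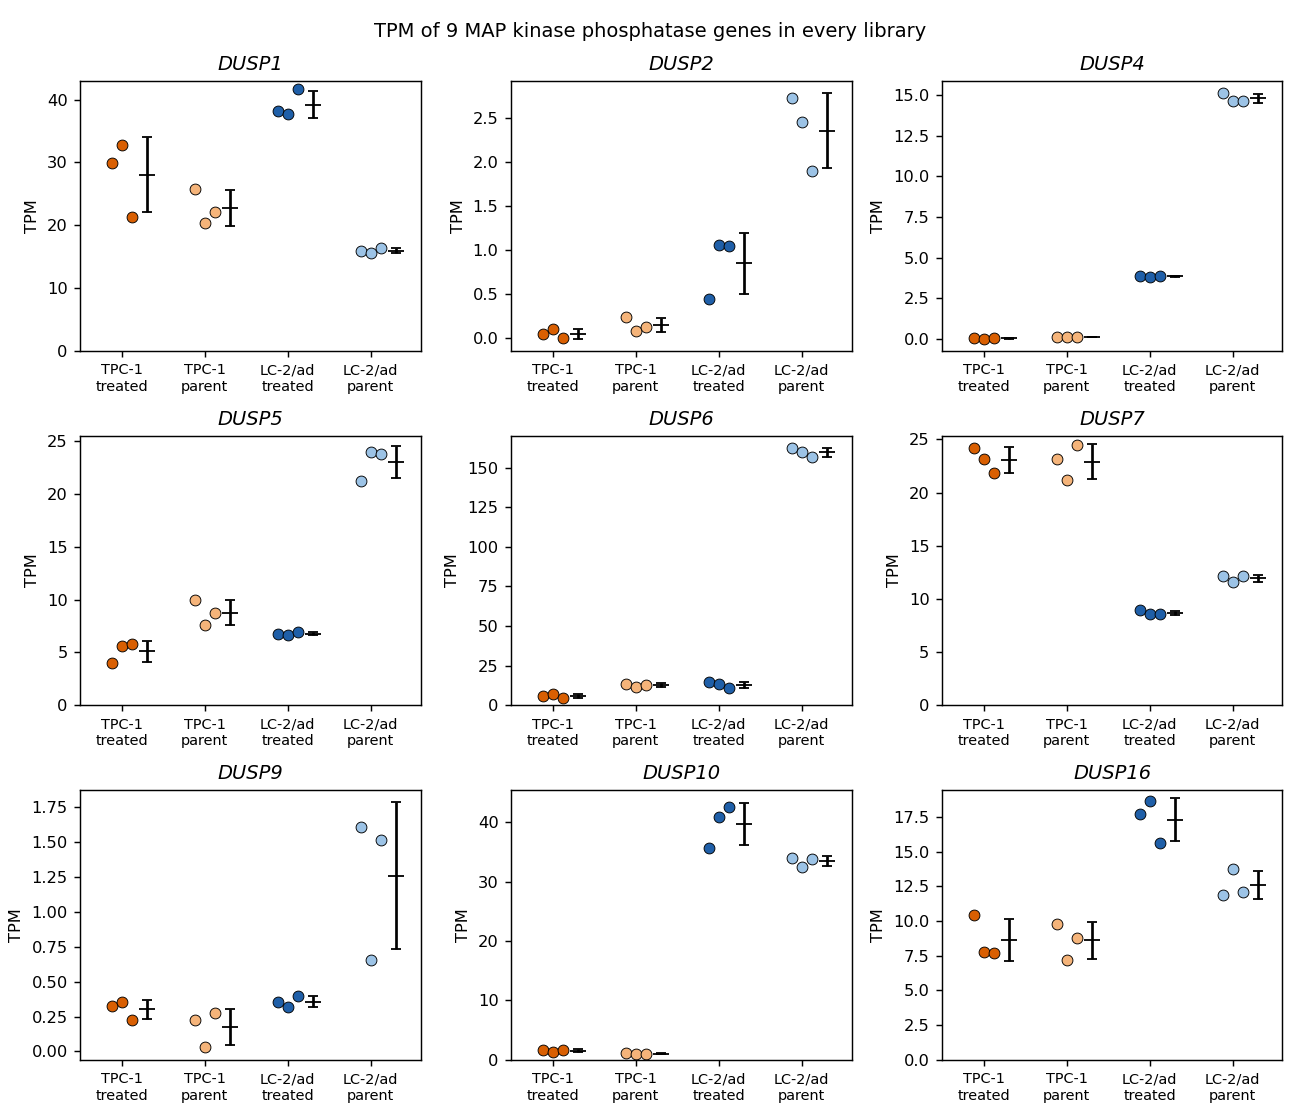
TPM of each of the 9 phosphatase genes in every library, 1 panel per gene, each with its own linear axis from 0. The groups run from treated and parent TPC-1 to treated and parent LC-2/ad cells; points are the 3 libraries of a group and the black marks their mean ± SD. DUSP6 stands far lower in treated than in parent LC-2/ad cells, and DUSP4 and DUSP10 are low in TPC-1 in both groups.

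Among the cytoplasmic phosphatases, DUSP6 fell in both lines. The gene (ENSG00000139318) lies on chromosome 12, from 89347232 to 89353271 on the minus strand (GRCh38, GENCODE 29). In TPC-1 it had 5.69, 7.42 and 4.62 TPM in the treated libraries and 13.6, 11.3 and 13.0 TPM in the parent libraries. Every treated library lay below every parent library. The means were 5.91 ± 1.41 and 12.7 ± 1.18 TPM (SD, n = 3 each), 2.14-fold lower with the drug (log2 fold change -0.999 ± 0.16, adjusted p = 0.0082, limma). The call was lost when low genes were kept in the fit (adjusted p = 0.0641). By size of decrease DUSP6 ranked 44th of the 12825 genes tested in TPC-1. In LC-2/ad DUSP6 had 14.6, 13.2 and 10.9 TPM in the treated libraries, against 162.1, 160.0 and 156.5 TPM in the parent libraries. The groups lay far apart, with the 3 parent libraries close together. The means were 12.9 ± 1.84 and 159.5 ± 2.83 TPM (SD, n = 3 each), a 12.4-fold decrease (log2 fold change -3.54 ± 0.09, adjusted p = 2.32e-07, limma). Among the 14118 genes tested this was the third lowest log2 fold change.

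DUSP7, on the minus strand of chromosome 3 from 52048919 to 52056550 (ENSG00000164086), is the closest relative of DUSP6 in the family and also prefers ERK. In TPC-1 it had 24.2, 23.2 and 21.8 TPM in treated and 23.1, 21.1 and 24.4 TPM in parent cells. The groups overlapped, and the log2 fold change was 0.01, with a 95% confidence interval of -0.18 to 0.20 (adjusted p = 0.963, limma). In LC-2/ad DUSP7 had 8.93, 8.58 and 8.599 TPM in treated against 12.1, 11.6 and 12.2 TPM in parent cells. Every treated library was lower, by a small step: the fold was 1.37 (log2 fold change -0.42 ± 0.07, adjusted p = 0.00189, limma). The ratio of DUSP6 to DUSP7 averaged 0.256 in treated and 0.552 in parent TPC-1 cells, and 1.48 in treated and 13.4 in parent LC-2/ad cells.

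DUSP9, a phosphatase known mainly from placenta and from embryonic stem cells, lies on the plus strand of chromosome X from 153642492 to 153651326 (ENSG00000130829). It was under the level filter in both lines. TPC-1 had 0.329, 0.352 and 0.225 TPM in treated and 0.224, 0.0288 and 0.275 TPM in parent cells. LC-2/ad had 0.354, 0.318 and 0.396 TPM in treated against 1.61, 0.657 and 1.51 TPM in parent cells. The LC-2/ad groups did not overlap and the TPC-1 groups did. Without the level filter the log2 fold change of DUSP9 was 0.15 in TPC-1 (adjusted p = 0.546, limma) and -0.71 ± 0.19 in LC-2/ad (adjusted p = 0.0333, limma).

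Of the inducible nuclear phosphatases, DUSP5 fell in both lines, DUSP2 and DUSP4 fell in LC-2/ad, and DUSP1 rose in LC-2/ad. DUSP5, which acts on ERK alone and holds it in the nucleus, lies on the plus strand of chromosome 10 from 110497838 to 110511544 (ENSG00000138166). It had 3.98, 5.59 and 5.76 TPM in treated and 9.95, 7.60 and 8.73 TPM in parent TPC-1 cells. Treated and parent libraries did not overlap, but the spread in each group was close to 1 TPM. The means, 5.11 ± 0.983 and 8.76 ± 1.18 TPM (SD, n = 3 each), differed 1.71-fold (log2 fold change -0.68 ± 0.16, adjusted p = 0.0435, limma). This call held in 5 of 14 other settings, with adjusted p between 0.0306 and 0.149, and was lost whenever any 1 of the 6 libraries was left out. In LC-2/ad DUSP5 had 6.77, 6.68 and 6.90 TPM in treated against 21.3, 24.0 and 23.8 TPM in parent cells, 3.39-fold lower (log2 fold change -1.62 ± 0.08, adjusted p = 2.27e-06, limma).

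DUSP4, which dephosphorylates ERK and JNK and is itself an ERK-induced gene, lies on the minus strand of chromosome 8 from 29333064 to 29350668 (ENSG00000120875). In TPC-1 it was close to absent, with 0.0416, 0.0218 and 0.0469 TPM in treated and 0.129, 0.0888 and 0.126 TPM in parent cells, under the filter. The TPC-1 groups did not overlap, and the log2 fold change without the filter was -0.10 (unadjusted p = 0.0213, adjusted p = 0.241, limma). In LC-2/ad DUSP4 had 3.87, 3.78 and 3.88 TPM in treated against 15.1, 14.6 and 14.7 TPM in parent cells. The 3 treated libraries lay close together and far below the parent libraries. The decrease was 3.85-fold (log2 fold change -1.71 ± 0.08, adjusted p = 2.11e-06, limma).

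DUSP2, best known from activated lymphocytes and myeloid cells, lies on the minus strand of chromosome 2 from 96143166 to 96145440 (ENSG00000158050). TPC-1 had 0.0499, 0.111 and 0 TPM in treated and 0.238, 0.0820 and 0.128 TPM in parent cells, with overlap and under the filter (log2 fold change -0.12 without it, adjusted p = 0.473, limma). LC-2/ad had 0.450, 1.06 and 1.05 TPM in treated against 2.72, 2.45 and 1.89 TPM in parent cells. The treated libraries were all lower, from a level that was already low (log2 fold change -0.87 ± 0.20, adjusted p = 0.00757, limma).

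DUSP1, an immediate early gene whose product acts on p38, JNK and ERK and which glucocorticoids and stress induce, lies on the minus strand of chromosome 5 from 172768090 to 172771195 (ENSG00000120129). It had 29.9, 32.8 and 21.3 TPM in treated and 25.8, 20.4 and 22.0 TPM in parent TPC-1 cells. The groups overlapped through the lowest treated library, and the log2 fold change was 0.27 (95% confidence interval -0.08 to 0.62, adjusted p = 0.35, limma). In LC-2/ad DUSP1 had 38.2, 37.8 and 41.7 TPM in treated against 15.9, 15.5 and 16.4 TPM in parent cells. It was 2.46-fold higher with the drug while its nuclear relatives were lower (log2 fold change 1.25 ± 0.06, adjusted p = 3.06e-06, limma). The 4 nuclear genes together summed to 50.7 ± 2.44 TPM in treated and 56.1 ± 0.978 TPM in parent LC-2/ad cells (SD, n = 3 each), with DUSP1 the largest of the 4 in treated and DUSP5 the largest in parent cells.

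Of the phosphatases that prefer JNK and p38, both tested rose in LC-2/ad and neither passed the test in TPC-1. DUSP10, which acts on JNK and p38 and limits cytokine responses in immune cells, lies on the minus strand of chromosome 1 from 221701424 to 221742176 (ENSG00000143507). It had 1.64, 1.29 and 1.66 TPM in treated and 1.13, 0.937 and 0.933 TPM in parent TPC-1 cells. The TPC-1 groups did not overlap, yet the log2 fold change of 0.34 did not pass the test (95% confidence interval -0.06 to 0.74, adjusted p = 0.314, limma). In LC-2/ad DUSP10 had 35.7, 41.0 and 42.6 TPM in treated against 34.0, 32.5 and 33.8 TPM in parent cells. The first treated library lay only just above the highest parent library, and the fold was 1.19 (log2 fold change 0.24 ± 0.07, adjusted p = 0.0238, limma). That call was lost with median-of-ratios scaling (log2 fold change 0.14, adjusted p = 0.126) and in 4 of 6 fits that left out a library, namely replicate 2 or 3 of either group (adjusted p = 0.0534 to 0.0735).

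DUSP16, which shuttles between nucleus and cytoplasm and acts mainly on JNK, lies on the minus strand of chromosome 12 from 12474210 to 12562383 (ENSG00000111266). It had 10.4, 7.77 and 7.73 TPM in treated and 9.82, 7.20 and 8.80 TPM in parent TPC-1 cells. The groups overlapped, and the log2 fold change was 0.00 (95% confidence interval -0.34 to 0.34, adjusted p = 0.995, limma). In LC-2/ad DUSP16 had 17.7, 18.6 and 15.6 TPM in treated against 11.9, 13.7 and 12.1 TPM in parent cells. All treated libraries were higher, 1.38-fold in the mean (log2 fold change 0.43 ± 0.09, adjusted p = 0.00486, limma). DUSP1, DUSP6 and DUSP16 each overlap a noncoding gene on the other strand that is not analysed here, and whether reads were assigned by strand is not given in the sources used here, so a share of their TPM may come from those transcripts.

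Counted by separation, treated and parent libraries did not overlap for 3 of 6 members tested in TPC-1 (DUSP5, DUSP6 and DUSP10), where 25.8% of all genes tested did the same. In LC-2/ad 8 of 8 members tested did not overlap, against 62.8% of all genes tested. DUSP10 in TPC-1 and DUSP2 in LC-2/ad are among them and passed the level filter only through the group where they were high, so these counts lend no support to a separation of the family.

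**Figure D2:**
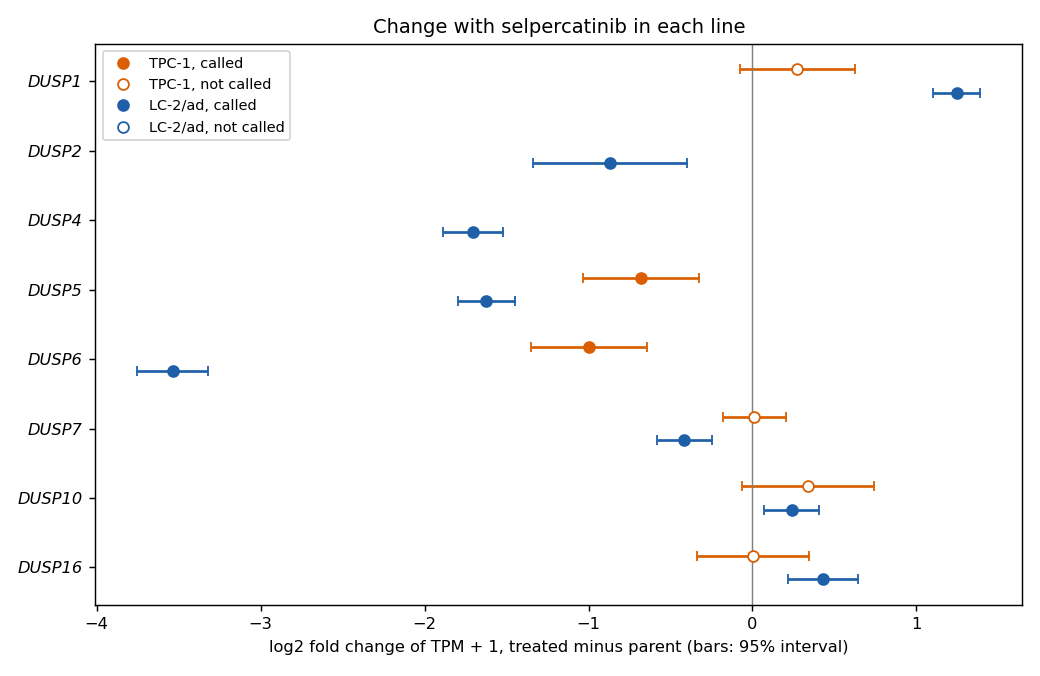
Log2 fold change of TPM + 1, treated over parent, for the members tested, with 95% confidence intervals from limma, in TPC-1 and LC-2/ad; filled points were called at an adjusted p under 0.05 and open points were not. The DUSP6 value is -0.999 in TPC-1 and -3.54 in LC-2/ad, and the interval of DUSP7 in TPC-1 spans 0.

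The order of the family's levels changed with the drug in LC-2/ad. In treated LC-2/ad cells DUSP10 and DUSP1 led, at means of 39.7 and 39.2 TPM that overlapped, followed by DUSP16, DUSP6, DUSP7, DUSP5, DUSP4, DUSP2 and DUSP9, whose neighbours did not overlap. In parent LC-2/ad cells DUSP6 led, ahead of DUSP10, DUSP5, DUSP1, DUSP4, DUSP16, DUSP7, DUSP2 and DUSP9, and the only neighbours that overlapped were DUSP16 and DUSP7. In TPC-1 DUSP1 and DUSP7 led in both groups and overlapped. In treated TPC-1 cells DUSP16, DUSP6, DUSP5 and DUSP10 followed, of which DUSP6 and DUSP5 overlapped. In parent TPC-1 cells the order was DUSP6, DUSP5, DUSP16 and DUSP10, with DUSP5 and DUSP16 overlapping. DUSP9, DUSP2 and DUSP4 were below 1 TPM in all 6 TPC-1 libraries.

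Summed over the 9 genes, TPC-1 had 72.7 ± 8.29 TPM in treated and 77.1 ± 7.72 TPM in parent cells (SD, n = 3 each). LC-2/ad had 129.7 ± 2.75 TPM in treated against 274.9 ± 1.96 TPM in parent cells. Without DUSP6 the LC-2/ad sums were 116.8 ± 4.43 and 115.4 ± 0.883 TPM, which differ by less than the SD of the treated libraries. The shares that follow are of the sum over all 9 genes, DUSP6 included. DUSP6 made up 8.08 ± 1.19% of the family's transcripts in treated and 16.4 ± 0.213% in parent TPC-1 cells, and 9.97 ± 1.61% in treated against 58.0 ± 0.619% in parent LC-2/ad cells. The JNK and p38 pair took 14.1 ± 2.24% in treated and 12.4 ± 0.602% in parent TPC-1 cells, and 44.0 ± 1.67% in treated against 16.7 ± 0.138% in parent LC-2/ad cells. The nuclear genes took 45.5 ± 3.17% in treated and 41.1 ± 1.76% in parent TPC-1 cells, and 39.1 ± 1.52% in treated against 20.4 ± 0.484% in parent LC-2/ad cells. As a ratio, DUSP1 to DUSP6 averaged 4.76 in treated and 1.79 in parent TPC-1 cells, and 3.10 in treated and 0.09998 in parent LC-2/ad cells. These shares add to a fixed total, so a lower share of DUSP6 means higher shares of other members. In TPM, the nuclear genes of LC-2/ad summed to 50.7 in treated and 56.1 in parent cells. The JNK and p38 pair summed to 57.1 TPM in treated and 46.0 TPM in parent LC-2/ad cells.

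**Figure D3:**
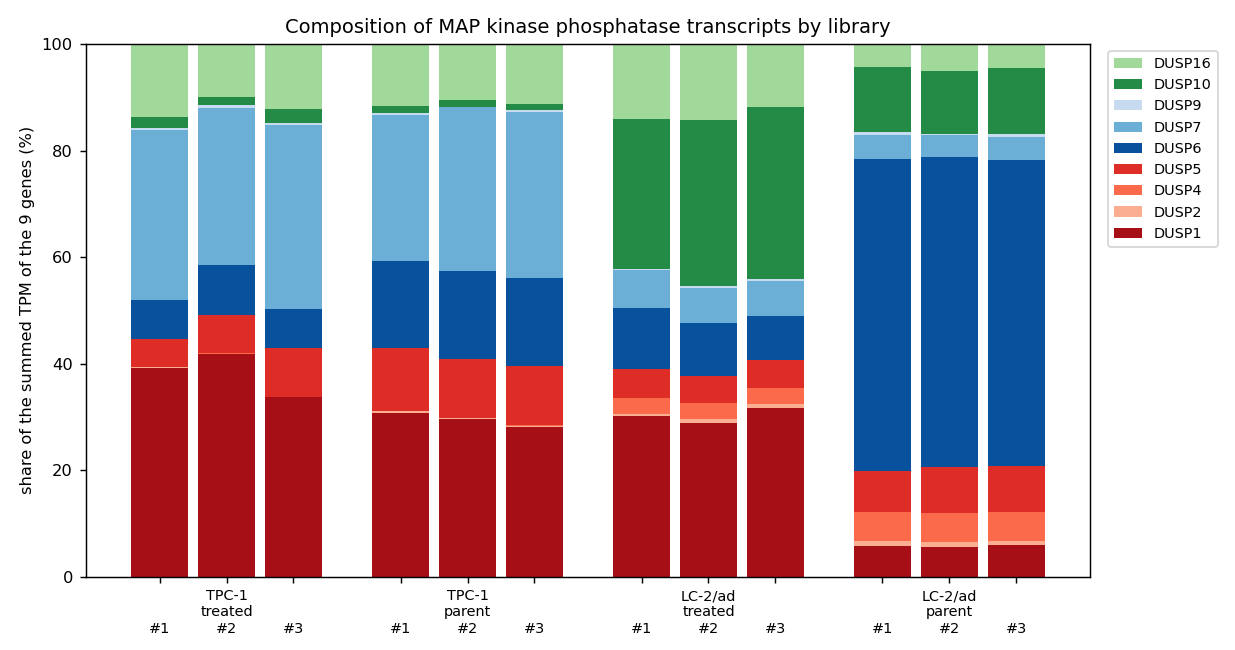
Share of each of the 9 genes in their summed TPM, in percent, as 1 stacked bar per library for treated and parent TPC-1 and treated and parent LC-2/ad cells. DUSP6 takes a mean of 58.0% in parent LC-2/ad cells and mean shares between 8.08% and 16.4% in the other groups.

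The drug response of the lines was compared by taking the LC-2/ad log2 fold change from that of TPC-1, in 1 fit over the 12 libraries for genes with a mean of at least 1 TPM in each line. Of 6 members tested, 3 were called with a positive difference (DUSP5, DUSP6, DUSP7) and 1 with a negative one (DUSP1), where 36.6% of all 11996 genes were called, 22.2% positive and 14.4% negative (2660 and 1733 genes, against 2066 and 2302 with mitochondrial genes removed). The DUSP6 difference was 2.54 ± 0.19 (adjusted p = 6.6e-07, limma), the ninth highest of the 11996. The DUSP5 difference was 0.94 ± 0.18 (adjusted p = 0.00118), with the larger decrease in LC-2/ad. The DUSP7 difference was 0.43 ± 0.11 (adjusted p = 0.00673), with a decrease in LC-2/ad and a log2 fold change of 0.01 in TPC-1. The DUSP1 difference was -0.97 ± 0.18 (adjusted p = 0.00123), a smaller log2 fold change in TPC-1. The DUSP16 difference was -0.43 (95% confidence interval -0.83 to -0.03, adjusted p = 0.0877) and did not pass after adjustment. It passed in 4 of 20 other settings, which were mitochondrial genes removed, the replicate block, and leaving out the second parent or the first treated TPC-1 library (adjusted p = 0.0237 to 0.0443). The DUSP10 difference was 0.10 (95% confidence interval -0.20 to 0.40, adjusted p = 0.616).

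Parent cells of the lines already stood at different levels, given here as values only since each line had its own table. DUSP6 averaged 12.7 TPM in parent TPC-1 and 159.5 TPM in parent LC-2/ad cells, 12.6-fold lower in TPC-1. The treated LC-2/ad mean of 12.9 TPM was thus close to that of untreated TPC-1. DUSP4 was 129-fold, DUSP10 33.5-fold, DUSP2 15.8-fold, DUSP9 7.18-fold, DUSP5 2.63-fold and DUSP16 1.46-fold lower in parent TPC-1 than in parent LC-2/ad cells. Parent TPC-1 means were below 1 TPM for DUSP4 (0.115), DUSP2 (0.149), DUSP9 (0.176) and DUSP10 (0.999), so the folds of these genes are imprecise. DUSP7 was 1.92-fold and DUSP1 1.43-fold higher in parent TPC-1 cells.

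**Figure D4:**
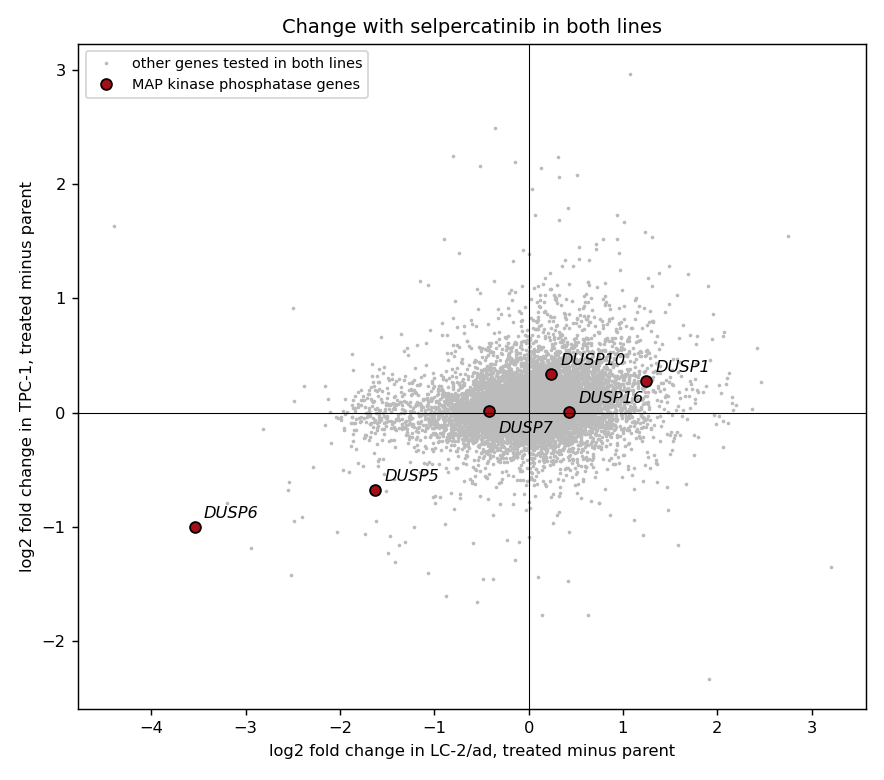
Log2 fold change of TPM + 1, treated over parent, in TPC-1 (vertical axis) and LC-2/ad (horizontal axis) for all 11996 genes tested in both lines (grey) and the 6 phosphatase genes among them (red). DUSP6 lies at -0.999 in TPC-1 and -3.54 in LC-2/ad, near the left edge of the plot.

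Other genes of the pathway were taken as fixed lists. Of 21 genes that ERK signalling is known to induce, DUSPs left out, 17 were tested in TPC-1. Of these 7 fell and none rose (median log2 fold change -0.55, against 0.05 over all genes). That count of lowered genes ran from 3 to 7 over the other settings, and was 3 to 5 with a library left out. Of all genes tested in TPC-1, 1.21% were called lower and 3.75% higher. Among the lowered genes SPRY4 in TPC-1 (means of 0.702 and 2.55 TPM in treated and parent cells) and ETV1 in LC-2/ad (0.392 and 3.595 TPM) passed the level filter only through parent cells. The transcription factor EGR1 had 4.55, 4.16 and 4.08 TPM in treated against 12.9, 12.2 and 11.1 TPM in parent TPC-1 cells (log2 fold change -1.31 ± 0.11, adjusted p = 0.000461, limma). In LC-2/ad 17 were tested and 16 fell, with none higher (median -1.05, against 0.07 over all genes). There 24.4% of all genes were called lower and 30.6% higher. ETV4, an ETS factor downstream of ERK, had 5.68, 5.58 and 4.20 TPM in treated against 44.0, 46.5 and 47.4 TPM in parent LC-2/ad cells (log2 fold change -2.94 ± 0.11, adjusted p = 7.45e-07, limma). In TPC-1 ETV4 changed by -1.19 ± 0.15 (adjusted p = 0.0034). ETV5, its close relative, changed by -2.55 ± 0.09 and PHLDA1 by -1.62 ± 0.06 in LC-2/ad (adjusted p = 7.44e-07 and 6.55e-07, limma). By the difference between the lines, 10 of 16 genes tested were positive and none negative, with ETV5 at 1.87 ± 0.24 and ETV4 at 1.75 ± 0.17. Of all genes tested for this difference, 22.2% were called positive and 14.4% negative.

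The atypical DUSPs lack the kinase-docking domain. In TPC-1 none of 9 tested was called by limma, 1 at an unadjusted p under 0.05, where 4.96% of all genes were called. That gene was DUSP3, at 45.9, 44.3 and 46.1 TPM in treated against 38.6, 37.7 and 39.2 TPM in parent TPC-1 cells. Its log2 fold change there was 0.23 ± 0.06 (adjusted p = 0.0626, limma). The DUSP3 difference between the lines was -0.06 (adjusted p = 0.565, limma). In LC-2/ad 3 of 10 rose and 1 fell, where 30.6% of all genes were called higher and 24.4% lower. DUSP22, which acts in JNK signalling, had 20.4, 23.8 and 22.2 TPM in treated against 13.7, 14.9 and 12.9 TPM in parent LC-2/ad cells (log2 fold change 0.64 ± 0.08, adjusted p = 0.000405, limma). DUSP3, a small phosphatase of ERK and JNK, had 44.9, 44.2 and 46.3 TPM in treated against 36.8, 35.9 and 37.6 TPM in parent LC-2/ad cells (0.29 ± 0.05, adjusted p = 0.00152, limma). The lowered one, DUSP12, and the last of the raised, DUSP18, each lost their call in other settings, DUSP12 in 8 of 14 and DUSP18 in 5 of 14. DUSP14 was listed at 0 in all 12 libraries.

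Of the phosphatases outside the DUSP family that act on MAP kinases or their pathway, 2 of 8 tested rose in TPC-1, where 3.75% of all genes were called higher, and the count was 1 with any library left out. In LC-2/ad 4 of 7 fell, where 24.4% of all genes were called lower. PTPRR, a tyrosine phosphatase that binds ERK, had 51.3, 41.9 and 44.0 TPM in treated against 25.9, 25.5 and 27.0 TPM in parent TPC-1 cells. Every treated library was higher than every parent library (log2 fold change 0.78 ± 0.09, adjusted p = 0.00156, limma). In LC-2/ad PTPRR stayed below 1 TPM in all 6 libraries and was not tested. PTPN11, which encodes SHP2 and promotes RAS activation, fell in LC-2/ad (log2 fold change -0.41 ± 0.06, adjusted p = 0.000552, limma), as did PPP2CA, a catalytic subunit of protein phosphatase 2A, by -0.32 ± 0.03 (adjusted p = 0.000136) and PPP5C by -0.54 ± 0.05 (adjusted p = 9.52e-05). The PPP2CA call in TPC-1, at 0.29 ± 0.07 (adjusted p = 0.0443), held in 4 of 14 other settings, with adjusted p up to 0.16.

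Of the MAP kinase genes, whose products these enzymes act on, 1 rose and 1 fell among 12 tested in TPC-1. In LC-2/ad 2 rose and 3 fell among 13 tested. The median log2 fold changes were 0.07 in TPC-1 and 0.01 in LC-2/ad, against 0.05 and 0.07 over all genes. Of all genes tested, 3.75% were called higher and 1.21% lower in TPC-1, and 30.6% higher and 24.4% lower in LC-2/ad. MAPK13, a p38 kinase gene, changed by -0.52 ± 0.05, MAPK9, a JNK gene, by -0.37 ± 0.05 and MAPK10, the JNK gene best known from neurons, by 0.86 ± 0.16 in LC-2/ad (limma). Upstream, 1 rose and none fell of 18 RAS, RAF and MEK genes tested in TPC-1. In LC-2/ad 2 rose and 3 fell of 18, beside the same shares over all genes. MAP2K1, which encodes the ERK kinase MEK1, changed by -0.51 ± 0.07 in LC-2/ad (adjusted p = 0.000503, limma). HRAS is not analysed here.

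Since stress and glucocorticoids also induce DUSP1, lists for both were counted. Of 15 stress response genes tested in each line, 6 rose and none fell in TPC-1 (median log2 fold change 0.59). In LC-2/ad 9 rose and 2 fell (median 0.31). The TPC-1 count of raised genes ran from 2 to 8 over the other settings, and was 3 to 8 with a library left out. Over all genes the medians were 0.05 in TPC-1 and 0.07 in LC-2/ad. Of all genes tested, 3.75% were called higher and 1.21% lower in TPC-1, and 30.6% higher and 24.4% lower in LC-2/ad. NFKBIA, the inhibitor of NF-κB, had 80.5, 91.4 and 70.1 TPM in treated against 29.9, 24.6 and 27.6 TPM in parent TPC-1 cells, and 302.2, 311.3 and 328.2 TPM in treated against 176.8, 181.6 and 185.3 TPM in parent LC-2/ad cells. It was higher in every treated library of both lines (log2 fold change 1.52 ± 0.11 in TPC-1, adjusted p = 0.000186, and 0.79 ± 0.04 in LC-2/ad, adjusted p = 3.53e-06, limma). IL6 rose by 2.16 ± 0.12 in TPC-1 and changed by -0.51 ± 0.11 in LC-2/ad (adjusted p = 8.28e-05 and 0.00451). The glucocorticoid list also holds NR3C1, the gene of the receptor itself. Of its 7 genes tested, 1 rose and none fell in TPC-1. In LC-2/ad 1 rose and 2 fell, beside the same shares over all genes. The raised one in LC-2/ad was TSC22D3 (0.59 ± 0.04, adjusted p = 1.83e-05, limma). The lowered ones were FKBP5 (-1.17 ± 0.07) and ERRFI1 (-0.98 ± 0.04).

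**Figure D5:**
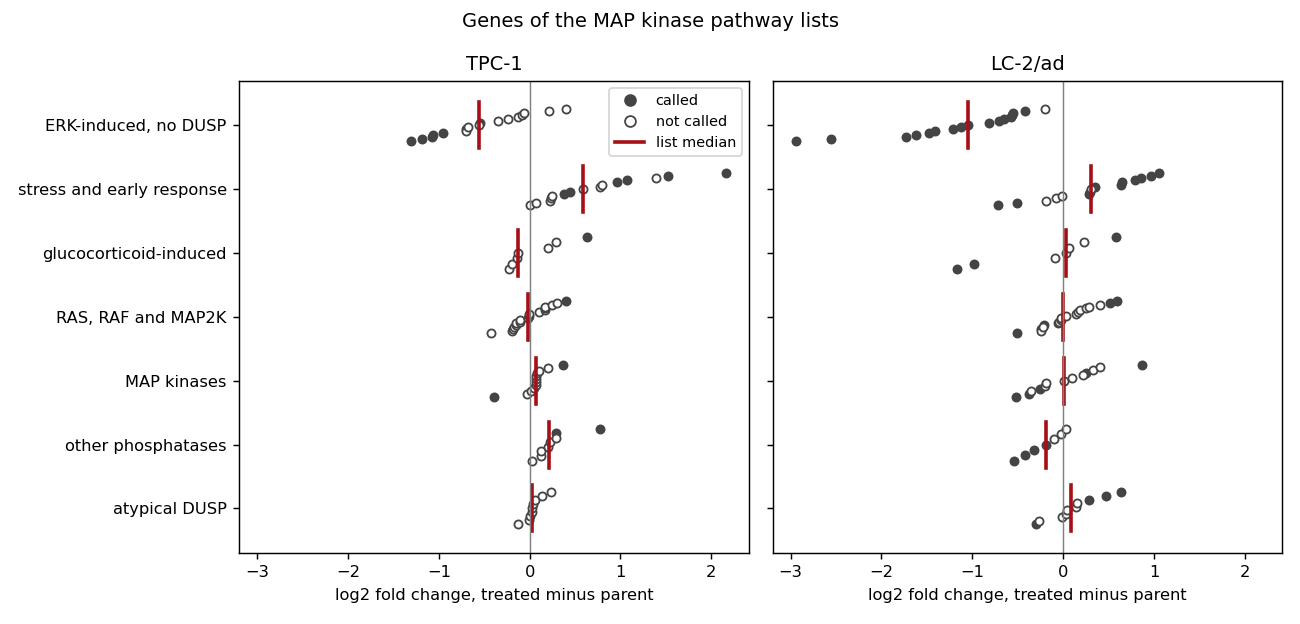
Log2 fold change of TPM + 1, treated over parent, of each gene tested in 7 pathway lists, with TPC-1 in the left panel and LC-2/ad in the right; filled points were called, open points were not, and the red bar is the list median. The ERK-induced list has a median of -0.55 in TPC-1 and -1.05 in LC-2/ad, and the other medians lie nearer to 0 or above it.

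The genes with a pattern most like that of DUSP6 were sought over the 12 libraries among 11996 genes, as the smallest root mean square difference in log2(TPM + 1) after the parent mean of each line was taken away. ETV4 was nearest, at 0.36, with GDF15 at 0.55, ETV5 at 0.57, SCD at 0.68 and MMP1 at 0.70. Their log2 fold changes in TPC-1 and LC-2/ad were -1.19 and -2.94 for ETV4, -0.61 and -2.55 for GDF15, -0.68 and -2.55 for ETV5, -0.92 and -2.40 for SCD, and -0.47 and -2.28 for MMP1. GDF15 encodes a stress-induced cytokine, SCD a fatty acid desaturase and MMP1 a collagenase. With a pseudocount of 5, with no level filter or with a minimum of 5 TPM, 3 of these 5 were again among the nearest 5.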

How the data were processed

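The deposited values are TPM per gene and library, 1 table per line, and each column sums to 1000000. Per the submitters' processing notes, the tools were bcl2fastq 2.20.0 and Salmon and the build was GRCh38; what each tool did, the annotation and the handling of strand are not given in the sources used here. TPM keep no read counts, so the depth is unknown and no counting interval is given; the precision rests on 3 libraries per group. Groups came from the sample labels. Symbols and coordinates came from GENCODE 29, which named 34436 of 37247 identifiers (92.5%).

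Within each line, log2(TPM + 1) was compared with limma 3.58.1 in R 4.3.3 (lmFit, then eBayes with its trend option) over genes whose mean was at least 1 TPM, two-sided, with Benjamini-Hochberg adjustment over all genes tested. The difference between the lines was the interaction over 12 libraries. The fit was tested on simulated data. The members, gene lists and tests were chosen with earlier results of these data known. All members were named; of each list up to 4 called genes with the largest log2 fold changes could be named, and other list genes shown were chosen after their values were seen. The values of 1 list gene are not reported here. Alternatives were pseudocounts of 0.1 and 5, no filter, a minimum of 5 TPM, median-of-ratios scaling, mitochondrial genes removed, eBayes without the trend, a block for the replicate number, and each library left out in turn.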

Additional observations from a re-analysis of the deposited data

Results flagged for a closer look

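These genes, which are the phosphatases, RET and the genes named from each list, were singled out because their drug response differed between the lines in the test of the difference itself (limma interaction, adjusted p under 0.05; TPC-1 minus LC-2/ad, in log2 units). Among the phosphatases the differences were 2.54 for DUSP6, 0.94 for DUSP5, 0.43 for DUSP7 and -0.97 for DUSP1, and RET itself differed by -0.43. Among the ERK-induced genes they were 1.87 for ETV5, 1.75 for ETV4, 1.09 for FOSL1, 0.78 for EPHA2 and 0.67 for PHLDA1. Among the kinases and adaptors they were 0.81 for MAP2K1, 0.62 for MAP2K3, 0.57 for MAPK9, 0.55 for MAPK8, 0.46 for GRB2, -0.36 for SHC1 and -0.79 for MAPK10. Among the other phosphatases they were 0.67 for PPP5C, 0.62 for PPP2CA, 0.61 for PTPN11, 0.48 for PPM1B and -0.51 for DUSP22. Among the stress and glucocorticoid genes they were 2.67 for IL6, 1.26 for CXCL8, 1.17 for IER5, 1.04 for FKBP5, 0.79 for ERRFI1, 0.73 for NFKBIA and 0.66 for GADD45A. Over the whole stress list 6 genes had a positive and 2 a negative difference that passed, the negative ones being KLF6 at -0.58 and JUN at -0.41, named after their values were seen.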

How the results depend on the processing

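Of 219 recomputed values of called members, 204 kept direction and call and 15 lost the call in the same direction, all of them DUSP10 in LC-2/ad (5), DUSP5 in TPC-1 (9) and DUSP6 in TPC-1 (1, with no filter). Of 94 values of members not called, 8 changed sign. DUSP7 in TPC-1 came to -0.044 with median-of-ratios scaling and to between -0.043 and 0.057 with a library left out. DUSP16 in TPC-1 came to -0.049 with median-of-ratios scaling, -0.006 with mitochondrial genes removed and between -0.125 and 0.093 with a library left out. The DUSP10 difference came to -0.093 with a pseudocount of 5. In TPC-1 481 genes were called higher and 155 lower. With no filter 272 were called (203 higher, 69 lower) and 0 members lower; with no variance trend 356 (266 higher, 90 lower) and 1 member lower; with median-of-ratios scaling 420 higher and 254 lower. Leaving out 1 library of TPC-1 gave 292 to 815 genes called, 222 to 676 higher, 70 to 139 lower, and 1 member lower each time. In LC-2/ad 4319 were called higher and 3451 lower, against 3442 and 4318 with median-of-ratios scaling, so the balance of directions there rests on the scaling, which shifted the median of all genes by -0.09. For the difference between the lines, 2660 were positive and 1733 negative, against 2066 and 2302 with mitochondrial genes removed. With no filter 6 members were positive, in a fit that also took in DUSP2, DUSP4 and DUSP9. These genes were below 1 TPM in every TPC-1 library, where adding 1 TPM leaves them little room to fall. The count with no filter thus lends no support to a difference of the family. Of the members, 2 were negative with mitochondrial genes removed, and 1 to 2 were negative with a library left out. Same-numbered libraries did not deviate together (correlations of -0.10 to 0.08), so the replicate block gives no pairing; with the block 1 member was lower in TPC-1, since DUSP5 had an adjusted p of 0.0698, and 2 were negative in the difference. The cause of these shifts was not tested. Levels under 1 TPM limit DUSP2, DUSP4 and DUSP9 in TPC-1 and DUSP9 in LC-2/ad.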

Other observations

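DUSP8P5, annotated as a processed pseudogene of DUSP8 and chosen after its values were seen, had 0.550, 0.301 and 0.431 TPM in treated and 0.364, 0.113 and 0.469 TPM in parent TPC-1 cells, which overlapped. In LC-2/ad it had 1.75, 2.15 and 1.74 TPM in treated against 0.854, 0.927 and 0.762 TPM in parent cells, which did not overlap. Reads from near-identical sequences may be split among such copies, so these values are uncertain.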
